A study of Homo sapiens with 12 samples.

Results

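The genes described here are 10 enzymes and subunits that modify collagen, chosen by symbol from 28278 genes in the count table. They comprise 4 prolyl 4-hydroxylase genes (P4HA1, P4HA2, P4HA3 and P4HB), 3 lysyl hydroxylase genes (PLOD1, PLOD2 and PLOD3) and 3 lysyl oxidase genes (LOX, LOXL1 and LOXL2). The set was chosen with one result in view, a larger rise of P4HA2 in CCL218, so every HCQ effect on P4HA2 is given as a description and carries no test. Of the 10 genes, 7 passed the filter on low counts in each cell line, and 3 (P4HA3, LOX and LOXL2) did not.

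Messenger RNA was sequenced from cells labelled OVCAR3, described by the study as an ovarian cancer line, and CCL218, described as a colorectal cancer line. Cells were grown in 96-well plates, and the HCQ-evolved plate of each line received 15 exposures of 48 h to hydroxychloroquine (HCQ), a lysosome-targeting drug that inhibits autophagy, followed by 7 days without drug. Control cells of the same line were passaged without HCQ. Each of the 4 groups had 3 libraries, made from the left (L), middle (M) and right (R) part of one plate, which gives 12 libraries. The labels give passage 19 for control pools and passage 15 for HCQ-evolved pools. All pools of a group came from one plate, so p-values measure the spread between pools of a plate, and HCQ evolution, plate and passage cannot be told apart.

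Libraries held 31147822 to 59965861 counts. Intestinal marker genes were abundant under both labels. Their summed level was 1116 to 1400 CPM (counts scaled to the library total, with TMM normalization) in control OVCAR3 pools and 1347 to 1874 CPM in control CCL218 pools, whereas 12 ovarian markers summed to 87.9 to 107 and 131 to 165 CPM. SOX17, a transcription factor of the ovarian epithelial lineage, had 0 counts in every pool. MUC16, which encodes the ovarian tumour antigen CA-125, was at 22.4 ± 8.83 CPM in control OVCAR3 and 8.65 ± 5.04 CPM in control CCL218. FOLR1 (4.93 ± 1.19 against 2.56 ± 0.665 CPM) and PAX8 also had higher means in control OVCAR3 than in control CCL218. MSLN (14.2 ± 3.81 against 63.6 ± 27.1 CPM) and MECOM had lower means there. SOX17, absent under both labels, does not tell the lines apart, and LGALS4 was the largest part of the intestinal sum in both. Abundant intestinal markers thus went against the OVCAR3 label, whereas single ovarian markers differed between the lines in both directions. The identity of the cells was not settled, and "OVCAR3" below stands for the libraries so labelled.

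Prolyl 4-hydroxylase is a tetramer of catalytic alpha subunits (P4HA1, P4HA2 or P4HA3) and beta subunits (P4HB, which is protein disulfide isomerase), and it hydroxylates collagen prolines in the endoplasmic reticulum so that the triple helix is stable at body temperature. Lysyl hydroxylases (PLOD1 to PLOD3) hydroxylate collagen lysines there, and secreted lysyl oxidases (LOX and its relatives) then oxidise lysines to start collagen crosslinks. Several of these genes, P4HA1, P4HA2, PLOD2 and LOX among them, are known targets of hypoxia-inducible factor (HIF), which binds short sites with the core ACGTG or GCGTG.

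The 250 bases before the RefSeq start site are shown for the 3 genes that had the highest fold changes of the set, and for LOX as a gene of the set with few counts. Capitals mark ACGTG or GCGTG on either strand (CACGT and CACGC are their reverse complements, and neighbouring matches are counted separately). The sequences come from RefSeq on GRCh38.p14 and read 5′ to 3′ on the strand of the gene.
P4HA1 (chr10:73096867-73097116, minus strand): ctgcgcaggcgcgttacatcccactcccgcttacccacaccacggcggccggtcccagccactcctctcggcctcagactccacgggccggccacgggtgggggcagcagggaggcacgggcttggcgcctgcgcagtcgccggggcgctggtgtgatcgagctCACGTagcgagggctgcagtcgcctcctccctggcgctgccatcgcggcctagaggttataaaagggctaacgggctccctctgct
P4HA2 (chr5:132227092-132227341, minus strand): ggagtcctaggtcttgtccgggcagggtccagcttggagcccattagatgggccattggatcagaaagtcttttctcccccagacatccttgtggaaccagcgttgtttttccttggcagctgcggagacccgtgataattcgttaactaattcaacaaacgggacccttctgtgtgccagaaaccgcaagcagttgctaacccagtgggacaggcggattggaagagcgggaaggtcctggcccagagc
PLOD2 (chr3:146161185-146161434, minus strand): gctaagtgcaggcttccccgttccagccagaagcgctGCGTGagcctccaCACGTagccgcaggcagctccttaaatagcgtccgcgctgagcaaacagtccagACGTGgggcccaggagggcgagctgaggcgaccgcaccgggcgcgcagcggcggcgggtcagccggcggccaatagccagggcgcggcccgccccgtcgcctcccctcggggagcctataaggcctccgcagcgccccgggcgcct
LOX (chr5:122078260-122078509, minus strand): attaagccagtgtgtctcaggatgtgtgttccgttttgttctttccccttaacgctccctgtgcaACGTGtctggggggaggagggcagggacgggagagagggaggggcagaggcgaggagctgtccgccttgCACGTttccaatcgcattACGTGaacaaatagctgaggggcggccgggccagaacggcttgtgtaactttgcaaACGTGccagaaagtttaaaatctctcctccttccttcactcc

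P4HA1 held 1 match to ACGTG, 82 to 86 bases before its start, and PLOD2 held 2 matches to ACGTG and 1 to GCGTG. The P4HA2 window held 0 matches to either motif, and the first of the LOX windows, the one shown, held 4 matches to ACGTG. The windows of the other LOX starts each held 1 match to ACGTG and 1 to GCGTG. Among 35116 RefSeq windows of the same length, 43.2% held at least 1 match, 19.4% at least 2, 7.76% at least 3 and 3.22% at least 4. The P4HA2 start used here ends its window at base 132227341 of chromosome 5, whereas the GENCODE 44 gene runs from 132190147 to 132295315, so starts farther upstream lie outside this window. RefSeq windows of the other genes found in the table held 1 match (P4HB), 2 matches (PLOD1) or 0 matches (PLOD3 and LOXL1). Letters that match are a description of these windows and do not show that a factor binds.

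The first question was how the alpha and beta subunits of prolyl 4-hydroxylase differed after HCQ evolution. In OVCAR3, P4HA1 was at 91.9, 139 and 134 CPM in the control pools (L, M, R) and at 353, 438 and 342 CPM in the HCQ-evolved pools. In CCL218 it was at 68.7, 125 and 108 CPM in control pools and at 486, 551 and 426 CPM in HCQ-evolved pools. Every HCQ-evolved pool stood above every control pool of its line, and the lowest control value of each line was the L pool. P4HA1 rose in OVCAR3 by a log2 fold change of 1.65 (SE 0.226, adjusted p = 0.0215, edgeR quasi-likelihood test) and in CCL218 by 2.28 (SE 0.237, adjusted p = 0.00409). It ranked 61 of 12204 genes tested from the highest fold change in OVCAR3 and 41 of 12241 in CCL218. The OVCAR3 call was lost when any one pool other than HCQ-evolved R was left out, with adjusted p of 0.0615 to 0.136 and log2 fold changes of 1.46 to 1.76.

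P4HA2, the second alpha subunit, was measured at 80.9, 86.4 and 99.2 CPM in control OVCAR3 pools and at 237, 244 and 192 CPM after evolution. In CCL218 it was at 57.8, 60.4 and 54.6 CPM in control pools and at 295, 323 and 262 CPM in HCQ-evolved pools. Thus control CCL218 pools all lay below control OVCAR3 pools, and HCQ-evolved CCL218 pools all lay above HCQ-evolved OVCAR3 pools. The fold between group levels was 2.55 in OVCAR3 (log2 1.35, SE 0.181) and 5.08 in CCL218 (log2 2.34, SE 0.131), and the difference between these log2 fold changes was 1.01 (SE 0.2). These values chose the gene set and are not tested.

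P4HB, the beta subunit, did not share this pattern. It was at 1267, 1036 and 968 CPM in control OVCAR3 pools and at 955, 917 and 1010 CPM in HCQ-evolved pools, which overlapped. In CCL218 the control pools were at 1040, 873 and 868 CPM and the HCQ-evolved pools at 867, 821 and 833 CPM, so that the nearest values of the groups, 868 and 867 CPM, almost met. The log2 fold change of P4HB was -0.16 in OVCAR3 (SE 0.192, adjusted p = 0.728) and -0.15 in CCL218 (SE 0.132, adjusted p = 0.513, edgeR). P4HA3, the third alpha subunit, had 0 to 2 counts in any pool and lay below the floor of 3 counts (0.0502 to 0.0942 CPM), which covers counting error only.

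**Figure D1:**
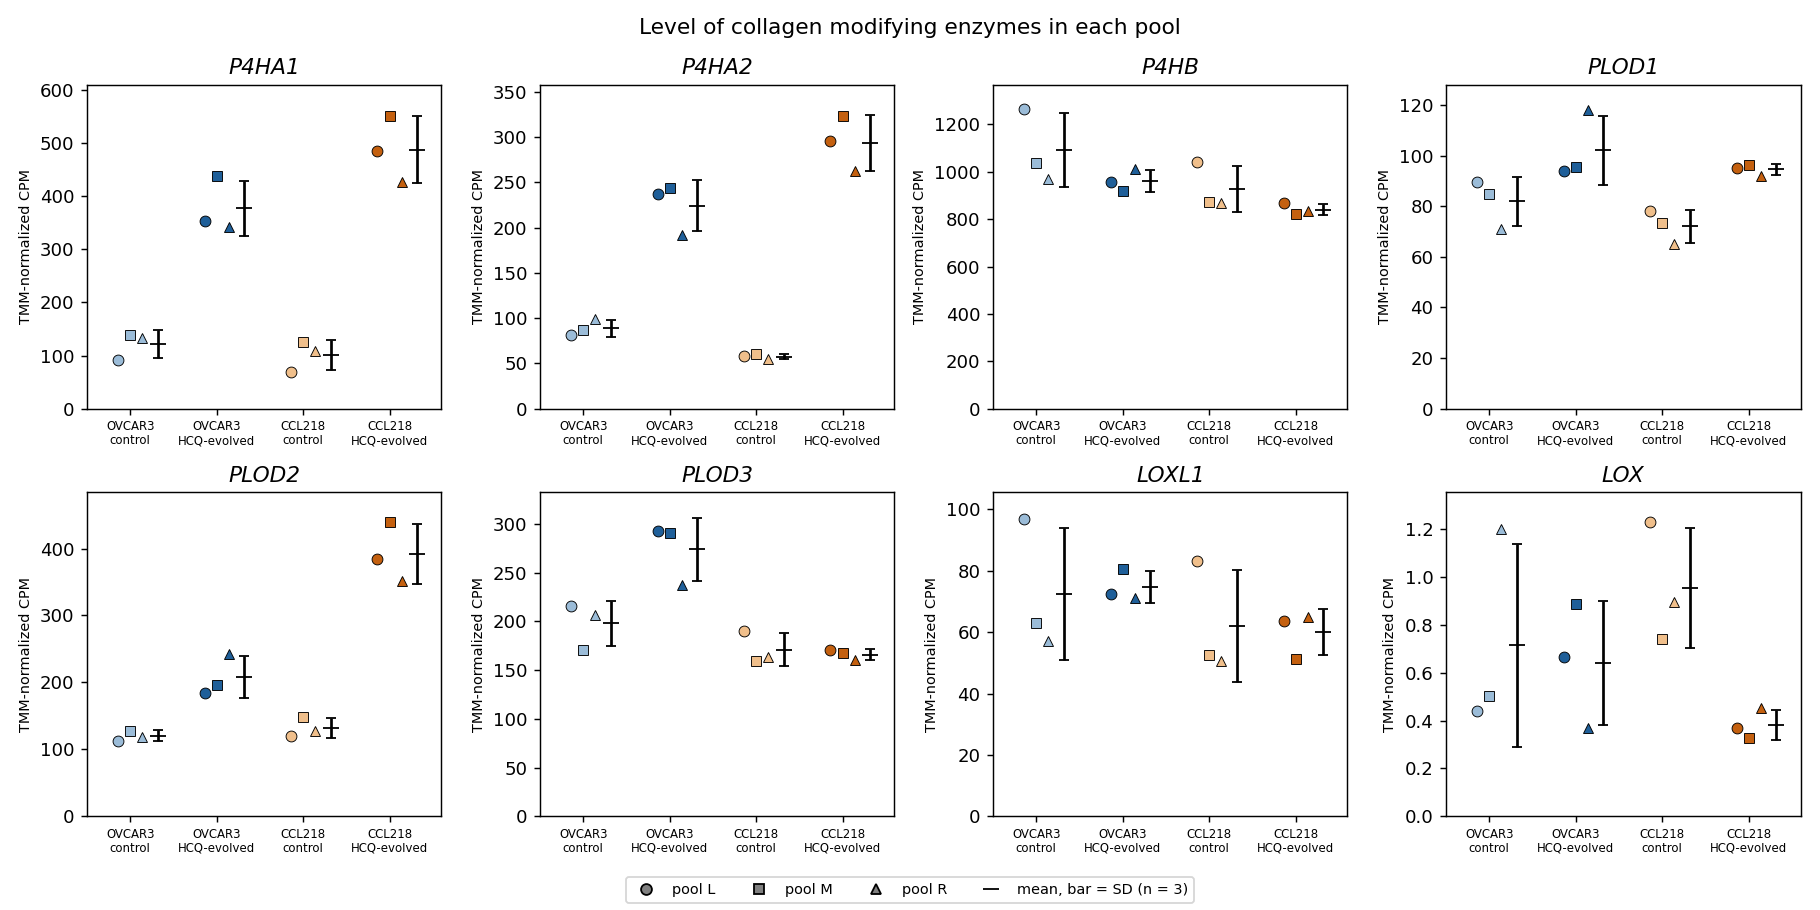
TMM-normalized CPM (y axis, linear, from 0) of 8 genes in the 12 pools, grouped on the x axis by line and condition, with mean and SD of 3 pools beside each group. P4HA1, P4HA2 and PLOD2 are higher in every HCQ-evolved pool than in every control pool of the same line, whereas P4HB and LOXL1 pools of a line overlap or nearly touch, and LOX is at most 1.23 CPM.

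The lysyl hydroxylases differed from each other. PLOD2, the isoenzyme known for hydroxylating collagen telopeptides, was at 112, 128 and 118 CPM in control OVCAR3 pools and at 184, 196 and 243 CPM in HCQ-evolved OVCAR3 pools. In CCL218 its control pools were at 120, 149 and 127 CPM and its HCQ-evolved pools at 385, 440 and 352 CPM. The pools were apart in both lines, and each HCQ-evolved CCL218 pool was above each HCQ-evolved OVCAR3 pool. In CCL218 PLOD2 rose by a log2 fold change of 1.57 (SE 0.143, adjusted p = 0.00253, edgeR), and in OVCAR3 the log2 fold change was 0.82 (SE 0.185, adjusted p = 0.0742), short of the threshold of 0.05. PLOD2 has a long transcript of low GC content (35.5%), and deviations of the libraries from their line mean correlated with transcript length at rank correlations from -0.456 to 0.527. With the trend in length and GC content removed, PLOD2 in OVCAR3 had a log2 fold change of 0.59 and an adjusted p of 0.0288, and with a block for plate position added to that fit the adjusted p was 0.136.

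PLOD1, which hydroxylates helical lysines, was at 89.6, 84.8 and 71.1 CPM in control OVCAR3 pools and at 94.0, 95.3 and 118 CPM in HCQ-evolved pools. Its values in CCL218 were 78.0, 73.4 and 65.0 CPM in control pools and 95.2, 96.4 and 92.0 CPM in HCQ-evolved pools. The pools did not overlap in either line, but the differences were small and did not pass the threshold in OVCAR3 (log2 fold change 0.35, SE 0.189, adjusted p = 0.422) or CCL218 (0.39, SE 0.121, adjusted p = 0.106, edgeR). In CCL218 PLOD1 passed under 4 of 14 alternatives: DESeq2 (adjusted p = 0.0145), the length and GC trend removed (0.0225), trend and block together (0.0295) and without control L (0.00774). PLOD3, which also carries glycosyltransferase activity, was at 216, 171 and 207 CPM in control OVCAR3 pools and 293, 291 and 237 CPM in HCQ-evolved pools, and at 190, 159 and 164 CPM against 171, 168 and 160 CPM in CCL218. Its OVCAR3 pools were apart and its CCL218 pools overlapped. The log2 fold change of PLOD3 was 0.48 in OVCAR3 (SE 0.173, adjusted p = 0.218) and -0.04 in CCL218 (SE 0.122, adjusted p = 0.846, edgeR). PLOD3 shares 102 exonic bases with ZNHIT1 on the opposite strand, and the sources used here do not state whether reads were counted by strand.

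Among the lysyl oxidases, LOXL1 was the member with counts high enough to test. It was at 96.9, 63.0 and 57.1 CPM in control OVCAR3 pools and at 72.4, 80.6 and 71.1 CPM in HCQ-evolved pools, and at 83.2, 52.4 and 50.7 CPM against 63.5, 51.4 and 64.9 CPM in CCL218. The L control pool was the highest in both lines, and HCQ-evolved pools lay within the control range. LOXL1 log2 fold changes were 0.07 (SE 0.226, adjusted p = 0.915) in OVCAR3 and -0.05 (SE 0.221, adjusted p = 0.893) in CCL218. LOXL1 shares 335 exonic bases with LOXL1-AS1, which had at most 577 counts in a library.

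LOX had 17, 16 and 65 counts in control OVCAR3 pools and 38, 46 and 22 counts in HCQ-evolved pools, or 0.714 ± 0.424 against 0.64 ± 0.26 CPM (SD, n = 3, two-sided exact permutation p = 0.8). In CCL218 it had 50, 34 and 42 counts in control pools and 18, 18 and 27 counts in HCQ-evolved pools. All HCQ-evolved CCL218 pools were lower than all control pools, at 0.383 ± 0.0628 against 0.955 ± 0.25 CPM (two-sided exact permutation p = 0.1, the smallest that 3 against 3 pools allow), opposite in direction to P4HA1, P4HA2 and PLOD2 in the same libraries. LOXL2 had 2 to 16 counts in every pool, with 10, 8 and 16 counts in control OVCAR3 and 4, 8 and 5 in HCQ-evolved OVCAR3 (two-sided exact permutation p = 0.1 on CPM) and overlapping pools in CCL218 (p = 0.6, same exact test). These counts are too low for a fold change to be read closely. LOX shares 138 exonic bases with SRFBP1 on the opposite strand, which had at most 939 counts in a library. LOXL2 shares 120 exonic bases with ENTPD4 on the same strand, which had at most 2837 counts. The part of these neighbours in the LOX and LOXL2 counts was not tested.

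Apart from P4HA2, 1 of 6 tested genes of the set passed the threshold in OVCAR3 (P4HA1, higher), where 0.647% of all genes tested were called higher. In CCL218 2 of 6 passed (P4HA1 and PLOD2, both higher), where 3.82% of all genes were called higher. Pools did not overlap, with the HCQ-evolved pools higher, for 4 of 6 in OVCAR3 (P4HA1, PLOD1, PLOD2 and PLOD3) and for 3 of 6 in CCL218 (P4HA1, PLOD1 and PLOD2), against 13.0% and 18.6% of all genes tested. In the other direction, 1 of 6 was apart in CCL218 (P4HB), against 17.3% of all genes. The set was chosen from these same contrasts, and nothing further is read from these shares.

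**Figure D2:**
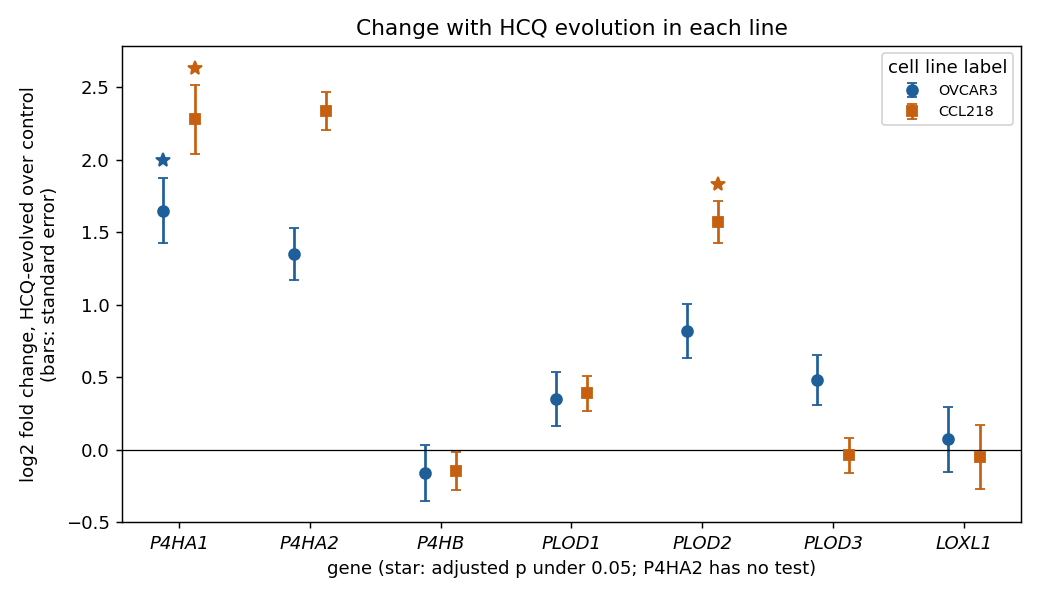
Log2 fold change of HCQ-evolved over control pools (y axis) with its standard error for the 7 tested genes (x axis), with circles for OVCAR3 and squares for CCL218, and a star where the adjusted p is under 0.05. P4HA1 stands at 1.65 and 2.28 and PLOD2 at 0.82 and 1.57, whereas P4HB and LOXL1 lie near 0 in both lines.

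Whether HCQ evolution acted differently in the 2 lines was tested by the interaction term of a model holding all 12 libraries. Of the 6 tested genes other than P4HA2, 0 passed the threshold in edgeR (0.872% of all genes did), 2 had an unadjusted p under 0.05, and DESeq2 and limma voom called 1 and 0. PLOD2 had a larger fold change in CCL218 by 0.77 on the log2 scale (SE 0.212, adjusted p = 0.146), and PLOD3 had a smaller one (difference -0.5, SE 0.198, adjusted p = 0.401). P4HA1 differed by 0.64 (SE 0.326, adjusted p = 0.637). The CCL218 call of PLOD2 beside the missed threshold in OVCAR3 does not by itself show that the lines differ. PLOD2 passed as an interaction with DESeq2 (adjusted p = 0.0246), with the length and GC trend removed (0.0189) and without HCQ-evolved OVCAR3 R (0.0465). It did not pass with a block for plate position (0.314) or with block and trend removal together (0.0906).

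Control pools of both lines were also compared with each other. For control CCL218 against control OVCAR3, 0 of 6 tested genes passed in edgeR, 0 had an unadjusted p under 0.05 and 0 were called by DESeq2 or limma voom, while 3.42% of all genes passed in edgeR. P4HA2 was lower in control CCL218 by 0.62 on the log2 scale (SE 0.142, not tested, since its rule shares these controls), at 57.6 ± 2.86 against 88.8 ± 9.35 CPM. Line and plate cannot be told apart in this comparison.

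Levels of different genes were compared as CPM per kb of exon length. With the union of all annotated exons as length, P4HB was first in control pools at 98.0 ± 14.1 CPM per kb in OVCAR3 and 83.3 ± 8.77 in CCL218, ahead of P4HA1 at 39.3 ± 8.34 and 32.5 ± 9.32. In HCQ-evolved pools P4HA1 was first at 122 ± 16.9 in OVCAR3 and 158 ± 20.1 in CCL218, ahead of P4HB at 86.3 ± 4.2 and 75.5 ± 2.15. This order depended on the length. With the MANE Select transcript (2.437 kb for P4HB in place of a union of 11.132 kb), P4HB stayed first in every group. P4HA1 then moved from the third place in control pools to the second in HCQ-evolved pools of both lines. The MANE Select length was chosen after seeing the data. In control OVCAR3 neighbours in the union order that overlapped between pools were P4HA1 and PLOD3, LOXL1 and PLOD1, and P4HA2 and PLOD2. In HCQ-evolved CCL218 they were PLOD3 and P4HA2, P4HA2 and PLOD2, and PLOD1 and LOXL1. LOX, LOXL2 and P4HA3 were the 3 lowest in all groups with either length.

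The balance of alpha to beta subunit RNA was followed as a ratio. The ratio of P4HA1 to P4HB per kb was 0.261, 0.482 and 0.497 in control OVCAR3 pools and 1.33, 1.72 and 1.22 in HCQ-evolved pools. In CCL218 it was 0.238, 0.515 and 0.447 in control pools and 2.02, 2.42 and 1.84 in HCQ-evolved pools. The ratio of means was 3.44-fold in OVCAR3 and 5.23-fold in CCL218, with the groups apart in each line (two-sided exact permutation p = 0.1, the smallest possible, in both). These folds are the same with either length, while the ratios themselves were 0.102 and 0.351 in OVCAR3 and 0.0987 and 0.516 in CCL218 with the MANE Select length. P4HB also serves protein folding outside prolyl hydroxylation, so the ratio compares RNA levels and not tetramers.

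PLOD2 took 12.3, 16.1 and 14.1% of the summed PLOD1, PLOD2 and PLOD3 level per kb in control OVCAR3 pools and 15.5, 16.3 and 20.7% in HCQ-evolved pools, which overlapped (two-sided exact permutation p = 0.2). In CCL218 the share was 14.7, 19.7 and 17.5% in control pools and 35.6, 38.8 and 34.7% in HCQ-evolved pools. The CCL218 groups were apart (means 17.3 ± 2.51% and 36.4 ± 2.14%, two-sided exact permutation p = 0.1, the smallest possible), and with the MANE Select length the means were 29.4% and 53.5%. P4HA2 per P4HA1 was 0.186 ± 0.0613 in control and 0.184 ± 0.00431 in HCQ-evolved CCL218 pools, and 0.228 ± 0.0394 and 0.182 ± 0.0195 in OVCAR3.

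**Figure D3:**
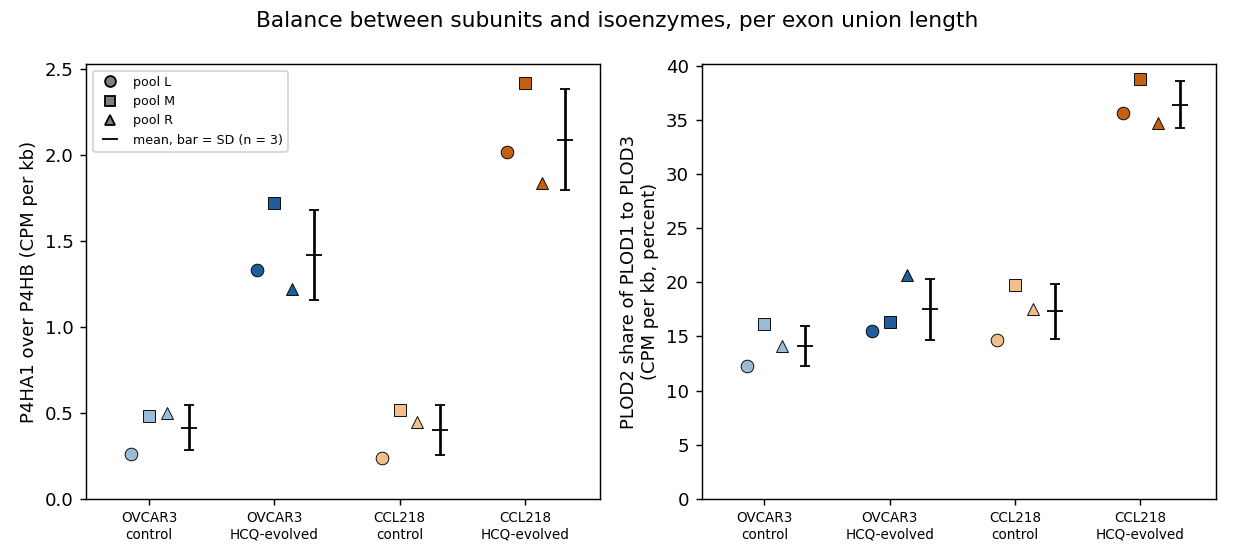
Left, P4HA1 over P4HB, and right, the percentage of the lysyl hydroxylase level contributed by PLOD2, both from CPM per kb of exon union (y axes, linear, from 0) in each pool of the 4 groups (x axis), with mean and SD of 3 pools. The P4HA1 ratio is at most 0.515 in control pools and at least 1.22 in HCQ-evolved pools, and the PLOD2 share is at least 34.7% in HCQ-evolved CCL218.

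Over the 12 libraries, the genes whose log2(CPM + 1) was most like that of P4HA2, among 10318 genes with a mean of at least 5 CPM, were EGLN3 (Pearson r = 0.985), BNIP3L (0.98), C8orf58 (0.98), CD68 (0.974) and PFKFB4 (0.972). EGLN3 is an oxygen-sensing prolyl hydroxylase of HIF, BNIP3L a mitophagy receptor, CD68 a lysosomal membrane protein and PFKFB4 a regulator of glycolysis. Of the collagen enzymes, P4HA1 was seventh (rank 7, r = 0.97) and PLOD2 had rank 127 (r = 0.869), followed by PLOD1 (rank 408), PLOD3 (3075), LOXL1 (5057) and P4HB (8477, r = -0.427). P4HB was most like LOXL1 (r = 0.749) among the tested members. The libraries fall into 4 groups and share controls, lines and length trends, so these values describe likeness over groups and carry no p.

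The genes around the enzymes were compared from other lists. Of genes that act with the hydroxylases (prolyl 3-hydroxylase complexes, collagen galactosyltransferases, the collagen chaperone SERPINH1 and FKBP isomerases), 0 of 12 tested passed in OVCAR3 and 0 of 13 in CCL218 with edgeR. Unadjusted p was under 0.05 for 4 and 6 of them, DESeq2 called 3 and 4, and limma voom 0 and 1. The list median was 0.13 in OVCAR3 and 0.08 in CCL218 on the log2 scale, beside 0.02 and -0.02 over all genes tested. The smallest p belonged to FKBP7 in OVCAR3 (3.01 ± 0.59 against 1.01 ± 0.352 CPM after evolution, log2 fold change -1.56, SE 0.342, adjusted p = 0.0688) and FKBP14 in CCL218 (8.54 ± 2.62 against 15.7 ± 1.14 CPM, 0.88, SE 0.225, adjusted p = 0.067), both isomerases of the endoplasmic reticulum.

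Procollagen secretion and processing showed 0 calls of 9 genes tested in each line with edgeR, 0 at an unadjusted p under 0.05 and 0 with DESeq2 or limma voom (medians -0.17 and -0.01). The smallest p in OVCAR3 belonged to SEC13, a coat protein of transport vesicles (log2 fold change -0.28, adjusted p = 0.541), and in CCL218 to BMP1, which cleaves procollagen C-propeptides (-0.34, adjusted p = 0.224, edgeR). Of other crosslinking enzymes and copper carriers, 0 of 5 tested passed in OVCAR3 with edgeR (0 at an unadjusted p under 0.05, 0 with DESeq2 and 0 with limma voom), where the copper pump ATP7A had the smallest p (0.67, adjusted p = 0.514). In CCL218 1 of 5 passed: LOXL4, a lysyl oxidase relative outside the set, fell from 73.1 ± 13.1 to 29.0 ± 6.2 CPM (log2 fold change -1.34, SE 0.208, adjusted p = 0.0145). In this list 3 of 5 had an unadjusted p under 0.05, DESeq2 called 3 and limma voom 1, and 2.64% of all genes tested in CCL218 were called lower by edgeR. The fall of LOXL4 did not differ between the lines beyond error (interaction -0.92, SE 0.453, adjusted p = 0.622).

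Of 42 collagen chain genes, the substrates of these enzymes, 10 were tested in OVCAR3 and 9 in CCL218. COL16A1, a fibril-associated chain, was at 64.5 ± 2.58 CPM in control and 160 ± 37.0 CPM in HCQ-evolved OVCAR3 pools and thus rose (log2 fold change 1.34, SE 0.215, adjusted p = 0.0309) and was at 27.8 ± 0.631 and 26.4 ± 0.794 CPM in CCL218, and its effect differed between the lines (interaction -1.39, SE 0.223, adjusted p = 0.0146, edgeR). In CCL218 3 of 9 passed: COL18A1, the precursor of endostatin, from 70.8 ± 2.79 to 113 ± 6.55 CPM (adjusted p = 0.0193), COL17A1, a hemidesmosome collagen, from 165 ± 21.7 to 285 ± 28.9 CPM (adjusted p = 0.0246), and COL13A1, a transmembrane collagen, from 0.272 ± 0.171 to 1.08 ± 0.104 CPM (adjusted p = 0.0381). COL13A1 was tested in CCL218 only because its HCQ-evolved pools reached the filter of 1 CPM, so it had to differ and its call supports nothing. The list medians were 0.14 and 0.2, and 0.647% and 3.82% of all genes tested were called higher in OVCAR3 and CCL218. COL1A1, a chain of fibrillar type I collagen, averaged 1.22 to 2.56 CPM over the 4 groups. It was the 1 gene of 12 fibroblast markers with a group mean of at least 1 CPM, and these markers summed to 0.686 to 3.64 CPM per pool.

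Among disulfide isomerases and oxidases related to P4HB, 1 of 19 tested rose in OVCAR3 and 2 of 18 in CCL218, with a list median of 0.15 in both. Of all genes tested, 0.647% were called higher in OVCAR3 and 3.82% in CCL218. QSOX1, a sulfhydryl oxidase, rose from 294 ± 21.4 to 634 ± 34.4 CPM in OVCAR3 (log2 fold change 1.13, SE 0.173, adjusted p = 0.027) and from 237 ± 26.9 to 611 ± 23.3 CPM in CCL218 (1.36, SE 0.131, adjusted p = 0.00278, edgeR). ERO1A, which reoxidises protein disulfide isomerase, rose in CCL218 (89.2 ± 12.8 to 191 ± 13.5 CPM, adjusted p = 0.00807, edgeR). It is also in the list of hypoxia targets below and is counted in both.

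In the oxygen-sensing list (HIF subunits, VHL and the EGLN hydroxylases), 1 of 7 tested genes rose in OVCAR3 and 2 of 7 in CCL218. For this list and the next, the shares of all genes called higher were 0.647% in OVCAR3 and 3.82% in CCL218. EGLN3 went from 45.8 ± 1.6 to 131 ± 11.4 CPM in OVCAR3 (log2 fold change 1.54, SE 0.166, adjusted p = 0.0101) and from 35.4 ± 6.46 to 162 ± 16.7 CPM in CCL218 (2.19, SE 0.175, adjusted p = 0.00164), and EGLN1 rose in CCL218 (1.15, SE 0.147, adjusted p = 0.00724, edgeR). Of hypoxia targets other than the collagen enzymes, 5 of 24 tested rose in OVCAR3 and 24 of 25 in CCL218, and 0 fell in either line. In OVCAR3 23 of 24 had a positive log2 fold change, and 20 had an unadjusted p under 0.05 (edgeR). The interaction passed for 1 of 25 (0.872% of all genes did), so the unlike counts do not show that the lines differ. The list medians were 1.03 in OVCAR3 and 1.39 in CCL218. Earlier results of these data had shown hypoxia genes to rise, so this list is no independent evidence of its direction. Leaving out 1 pool changed the counts to between 0 and 11 in OVCAR3 and between 9 (without HCQ-evolved M) and 24 in CCL218.

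PFKFB4 rose by 1.78 in OVCAR3 (SE 0.189, adjusted p = 0.0101) and 2.21 in CCL218 (SE 0.156, adjusted p = 0.00103), and ALDOC, a glycolytic aldolase, by 1.48 (adjusted p = 0.0241) and 2.16 (adjusted p = 0.00225) on the log2 scale. In OVCAR3 the mTORC1 inhibitor DDIT4 rose from 159 ± 1.7 to 464 ± 59.8 CPM (adjusted p = 0.0101) and GBE1, the glycogen branching enzyme, from 10.3 ± 1.23 to 33.8 ± 7.89 CPM (adjusted p = 0.0218). In CCL218 VEGFA, an angiogenic growth factor, rose from 163 ± 16.0 to 475 ± 42.3 CPM (adjusted p = 0.00199), and BHLHE40, a transcriptional repressor, from 19.5 ± 4.9 to 124 ± 11.4 CPM (adjusted p = 0.00164). Of these genes BHLHE40 differed between the lines (interaction 1.66, SE 0.28, adjusted p = 0.0197, edgeR). P4HA1 at 1.65 and 2.28 and P4HA2 at 1.35 and 2.34 were above the list median in both lines, whereas PLOD2 was below it in OVCAR3 and above it in CCL218.

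**Figure D4:**
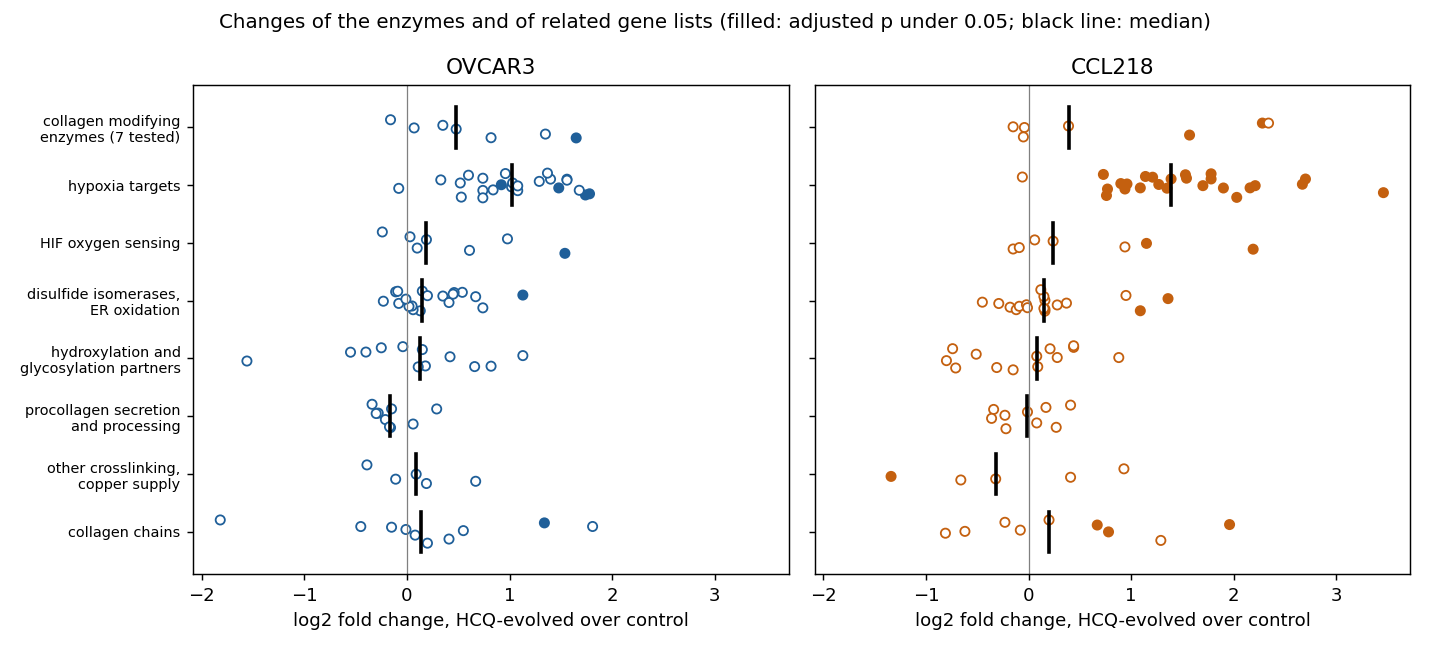
Log2 fold change of HCQ-evolved over control pools (x axis, the same for OVCAR3 on the left and CCL218 on the right) for the 7 tested collagen enzymes and for 7 gene lists (rows), with filled points where the adjusted p is under 0.05 and a black line at the median (P4HA2, at 1.35 and 2.34, is open because it was not tested). Hypoxia targets have medians of 1.03 and 1.39, while partners, secretion genes and collagen chains have medians between -0.17 and 0.2.

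CD68, one of the 5 genes most like P4HA2, is also an immune marker. It went from 12.7 ± 1.42 to 50.0 ± 1.81 CPM in CCL218 (log2 fold change 1.98, SE 0.136) and from 15.0 ± 2.77 to 35.7 ± 7.83 CPM in OVCAR3 (1.26, SE 0.243). A gene picked for likeness to P4HA2 over these libraries had to change with it, so CD68 is described without a test. EGLN3 and PFKFB4 are among the same 5 genes, and their calls above share this limit. The 6 immune markers summed to 27.3 to 33.7 CPM in control and 49.9 to 54.3 CPM in HCQ-evolved OVCAR3, and to 18.0 to 18.6 and 54.6 to 58.8 CPM in CCL218, with 3 or 4 of the 6 at or under the floor in all pools of a group. CD68 made up most of the rise of this sum. Intestinal markers summed to 309 to 897 CPM in HCQ-evolved OVCAR3 and to 1602 to 1667 CPM in HCQ-evolved CCL218, sums to which LGALS4 contributes most. Single intestinal markers rose in CCL218, where 6 of 10 tested passed, all higher, against 3.82% of all genes. Their list median was 1.1 on the log2 scale. CDH17, an intestinal cadherin, went from 3.84 ± 1.26 to 52.5 ± 6.66 CPM (log2 fold change 3.77, adjusted p = 0.0012), and GPA33, an intestinal surface antigen, from 4.77 ± 0.835 to 34.7 ± 2.22 CPM (2.86, adjusted p = 0.000608, edgeR). CEACAM5 and CDX2 had log2 fold changes of 2.1 and 1.54. In OVCAR3 0 of 10 passed in edgeR, 3 had an unadjusted p under 0.05, and DESeq2 and limma voom called 2 and 1, with a median of -0.54. The change differed between the lines for 3 of 11 (CDH17, EPHB2 and CEACAM5), against 0.872% of all genes. In bulk libraries a change in the share of some cells and a change in RNA per cell cannot be told apart, and the part of these markers in the enzyme values was not tested.

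Genes within 1 Mb of each enzyme were examined last, and those named here were chosen after their values were seen. Around P4HA1, 1 of 26 tested neighbours rose in OVCAR3 (DDIT4) and 2 of 26 in CCL218 (DDIT4, log2 fold change 1.9, and FUT11, a fucosyltransferase, 1.52), with medians of 0.06 and 0.08. Around P4HA2, 3 of 20 rose in CCL218 (SLC22A4, an organic cation transporter, by 1.92, SOWAHA by 1.2, and SLC22A5, a carnitine transporter, by 0.53), where the median was 0.25. The SLC22A4 gene overlaps that of P4HA2 on the opposite strand, with 0 shared exonic bases, and had at most 232 counts in a library. Whether reads from P4HA2 were counted for SLC22A4 was not tested. PLOD2 had 2 tested neighbours. Of these PLSCR4, a scramblase family gene, rose in both lines (1.6 in OVCAR3, adjusted p = 0.0377, and 1.05 in CCL218, adjusted p = 0.00781), and PLSCR1 rose in CCL218 (0.59, adjusted p = 0.0388, edgeR). Around P4HB, 1 of 53 tested neighbours fell in OVCAR3 (NOTUM, a secreted WNT inhibitor, log2 fold change -2.48), and in CCL218 1 of 52 fell (NOTUM, -2.08) and 2 rose (SLC16A3, a lactate exporter, by 1.13, and WDR45B by 0.71). In CCL218 3 of 33 neighbours of PLOD3 fell (TRIP6, SLC12A9 and IFT22, median -0.38) and 2 of 19 neighbours of LOXL1 rose (CCDC33 and ARID3B, median 0.23). Of all genes tested, 0.647% were called higher and 1.21% lower in OVCAR3, and 3.82% higher and 2.64% lower in CCL218.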

How the data were processed

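RNA of 12 libraries, 3 plate-position pools in each of 4 groups, was read from one table of 28278 gene symbols. The authors deposited whole-number counts of reads per gene after poly(A) selection, with reads aligned to hg38 by STAR and counted by featureCounts (versions, annotation and strand setting not given in the sources used here). Of entries of 1 to 4, 78.9% were even, so 1 count may not be 1 fragment. 0 columns were without a sample, and 0 pairs of libraries were identical.

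Groups came from the sample labels. The gene set and lists were chosen with earlier results of these data known. Tests used edgeR 4.0.16 in R 4.3.3 (quasi-likelihood, TMM, robust) on genes reaching 1 CPM in 3 or more libraries, each line alone (12204 genes in OVCAR3, 12241 in CCL218), with the interaction and the control comparison from one fit of all 12 libraries (12613 genes). P-values were adjusted by Benjamini-Hochberg over all genes tested, with a threshold of 0.05. P-values for ratios and low-count genes came from exact permutation of pools. Printed CPM use TMM factors of all 12 libraries. Named genes were all of the set, up to 4 genes of each list past the threshold in a line by smallest p (otherwise the smallest p), and the 5 genes most like P4HA2; exceptions are stated. Gene lengths and coordinates came from GENCODE 44 on hg38 (25763 symbols, 91.1%, matched). Windows before start sites came from RefSeq on GRCh38.p14, in which LOXL2 and P4HA3 were not used here. DESeq2 1.42.0, limma 3.58.1 voom, other scaling, no filter, a spline in length and GC content and a block for plate position were alternatives. The fit was tested on simulated data.

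Deviations of control and HCQ-evolved pools of the same position correlated at 0.466, -0.743 and -0.542 (L, M, R) in OVCAR3, which was not treated as paired. In CCL218 they correlated at 0.595, 0.334 and 0.248, all positive, so pairing is possible there. Control M of CCL218 correlated more with HCQ-evolved R (0.54) than with HCQ-evolved M, so pairing by position is not settled. Printed values come from fits without a block, exact tests permute pools as unpaired, and a fit with the block was run beside each. Depth was 31147822 to 59965861 counts, and 3 counts, the floor, were 0.0502 to 0.0942 CPM.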

Additional observations from a re-analysis of the deposited data

How the results depend on the processing

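In CCL218, P4HA1 and PLOD2 passed the threshold under all 14 alternatives, and P4HA2 had a log2 fold change of 2.27 to 2.42. In OVCAR3, P4HA1 passed under 8 of 8 alternatives that kept all pools and under 1 of 6 that left out a pool, and P4HA2 ranged from 1.27 to 1.44. The number of collagen enzymes called in OVCAR3, 1 in the main analysis, was 2 with DESeq2, 3 with the length and GC trend removed, 2 with all 12 libraries in one fit and 0 to 1 without one pool. With the replicate block it was 1 in OVCAR3 and 2 in CCL218, and the block alone changed no call of an enzyme. Added to the fit with the trend removed, the block took the OVCAR3 count from 3 to 1 (PLOD2 at adjusted p = 0.136, PLOD3 at 0.117) and the interaction count from 2 to 0 (0.0906 and 0.195), in edgeR. In CCL218 the count was 2 to 3, with PLOD1 as the third under 4 alternatives. The interaction count, 0 in the main analysis, was 1 with DESeq2, 2 with the trend removed and 0 to 1 without one pool. Hypoxia targets called higher in OVCAR3 (5) numbered 17 with DESeq2, 8 with limma voom, 12 without a filter, 3 with the replicate block, 16 with the trend removed, 10 with block and trend, 18 with all libraries in one fit and 0 to 11 without one pool. In CCL218 (24) they numbered 9 to 24 without one pool and 23 to 24 otherwise. These alternatives for the hypoxia list, and the MANE Select length, were chosen after seeing the data. Directions turned only where the value of the main analysis was smaller in size than its SE. The largest such value was LOXL1 between controls (-0.22, SE 0.237). With the trend removed, alone and with the block, PLOD3 in CCL218 was at 0.059 and 0.059, LOXL1 in CCL218 at 0.14 and 0.14, the P4HB interaction at -0.11 and -0.10 and the PLOD1 interaction at -0.028 and -0.0042. Without one pool, LOXL1 ranged from -0.077 to 0.31 in OVCAR3, -0.18 to 0.21 in CCL218, -0.37 to 0.17 as interaction and -0.49 to 0.048 between controls, PLOD3 in CCL218 from -0.088 to 0.036, and the P4HB and PLOD1 interactions from -0.08 to 0.13 and -0.0037 to 0.18. The cause of these shifts was not tested. Low counts limit what can be read for P4HA3, LOX and LOXL2, whose pools held 0 to 65 counts.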
